A study of Mus musculus with 4 samples.

Results

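The giant filament protein titin, its cap protein telethonin, the ankyrin repeat proteins that bind titin, the Xin repeat proteins, nexilin, muscle LIM protein and desmin were followed in hearts of mice that lack PRMT1 in cardiomyocytes. The members were the 10 genes Ttn, Tcap, Ankrd1, Ankrd2, Ankrd23, Xirp1, Xirp2, Nexn, Csrp3 and Des, taken by symbol from the 43346 genes of the deposited table. All 10 had a row in it. The series compared 2 PRMT1-cKO hearts with 2 wild-type (WT) hearts, all from 6-week-old mice of the C57BL/6 background. PRMT1, an arginine methyltransferase, was deleted in the heart muscle cells of PRMT1-cKO mice. The design gives 2 mice per genotype, and each library is taken as 1 heart. The labels name neither the Cre driver nor the alleles that the WT mice carry. RNA was total cardiac RNA depleted of ribosomal RNA, and the question was how the mRNA profile and splicing differ between the genotypes.

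Titin spans from the Z-disc to the M-band of the sarcomere and acts as a molecular spring, and its N-terminal end is capped at the Z-disc by telethonin, the product of Tcap. Ankrd1, Ankrd2 and Ankrd23 encode the muscle ankyrin repeat proteins, which bind the spring region of titin and also enter the nucleus. They are known as genes that respond to stretch and to injury of muscle. Muscle LIM protein (Csrp3), the Xin proteins (Xirp1 and Xirp2) and nexilin (Nexn) bind actin or its partners at Z-discs and intercalated discs, and desmin (Des) forms the intermediate filaments that tie Z-discs together.

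The table gives whole-number reads per gene in 3 kinds: gene reads, exon reads and intron reads. Nearly every exon read is also listed as an exon-exon read: the excess was 29 of 2605955 in the 4 libraries. Gene reads are the sum of exon and intron reads. How reads were assigned to exons is not stated, so the kinds are named below as the table names them. Reads that lie within a single exon may be listed as intron reads or left out. PRMT1-cKO libraries held 764806 and 671361 exon reads among 18291730 and 18674587 gene reads, and WT libraries held 624897 and 544891 among 25509854 and 21701967. Where 0 reads were counted, up to 3 could have been missed. For exon reads this is 3.92 to 5.51 CPM (counts per 1e6 reads of the same kind), depending on the library. For gene reads it is 0.118 to 0.164 CPM. Such floors and the intervals below cover counting error only. Prmt1 itself had 0 exon reads in all 4 libraries, with 33 and 44 gene reads in PRMT1-cKO and 33 and 18 in WT, so the table does not check the deletion. Of the cardiomyocyte markers Myh6, the adult myosin heavy chain gene, had 11074 and 11958 CPM of exon reads in PRMT1-cKO, against 29503 and 31117 CPM in WT. Some had few exon reads: Tnni3, cardiac troponin I, had 1 and 1 in PRMT1-cKO, against 11 and 16 in WT.

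Promoters are shown for Ankrd1 and Xirp2, a pair of genes that were higher in PRMT1-cKO, and for Ttn, which was lower. RefSeq promoter sequences on GRCm38.p6 matched 7 of the 10 members by symbol, and the 250 bases before each start were searched. Capitals mark matches, on either strand, to the MEF2 box, the site of the muscle MEF2 factors, and to CATTCC, the core of the M-CAT element bound by TEAD factors. The Ankrd1 window lies at chr19:36119845-36120094 on the minus strand, that of Xirp2 at chr2:67445752-67446001 on the plus strand and that of Ttn at chr2:76982548-76982797 on the minus strand.
Ankrd1: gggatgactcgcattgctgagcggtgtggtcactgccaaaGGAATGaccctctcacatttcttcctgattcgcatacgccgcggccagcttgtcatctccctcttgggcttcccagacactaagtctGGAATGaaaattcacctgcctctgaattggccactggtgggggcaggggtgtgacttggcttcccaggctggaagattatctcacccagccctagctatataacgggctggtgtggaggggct
Xirp2: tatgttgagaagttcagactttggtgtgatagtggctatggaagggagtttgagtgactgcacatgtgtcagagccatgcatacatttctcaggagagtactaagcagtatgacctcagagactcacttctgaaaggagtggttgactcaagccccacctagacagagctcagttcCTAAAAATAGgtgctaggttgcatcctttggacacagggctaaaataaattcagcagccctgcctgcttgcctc
Ttn: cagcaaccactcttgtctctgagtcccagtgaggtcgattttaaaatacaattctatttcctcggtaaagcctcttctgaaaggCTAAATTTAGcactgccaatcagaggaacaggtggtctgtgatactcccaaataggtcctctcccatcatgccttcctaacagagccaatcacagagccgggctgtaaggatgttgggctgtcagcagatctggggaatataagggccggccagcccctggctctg
The Ankrd1 window holds CATTCC 2 times, beginning 210 and 123 bases before the start, both on the opposite strand (GGAATG). Xirp2 has the MEF2 box CTAAAAATAG at 74 bases and Ttn the MEF2 box CTAAATTTAG at 166 bases before the start. Of 32536 promoter windows of the same length, 12.6% hold CATTCC and 2.89% a MEF2 box. The CArG box, the site of serum response factor (1.48% of windows), was found in 0 of the 7 member windows. TATAAA (12.3% of windows) was found in that of Ankrd2. The window of Csrp3 held none of these motifs, nor did those of Ankrd23 and Des, which were also higher in PRMT1-cKO. The RefSeq start used for Ankrd23 lies 327 bases inside the deposited gene, so its window is not the sequence before the deposited start. The searched motifs do not overlap in the windows shown. These letter matches describe the sequence and show no binding, and a gene that was higher and one that was lower in PRMT1-cKO both have a MEF2 box.

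In exon reads, the PRMT1-cKO hearts had more Ankrd1, Ankrd23, Xirp2 and Des RNA and less Ttn and Tcap RNA. Ankrd1 was 9.26-fold higher, Xirp2 5.11-fold, Des 4.62-fold and Ankrd23 4.56-fold. Tcap was 3.24-fold lower and Ttn 2.94-fold lower. Xirp1, Csrp3 and Nexn did not pass the test, and Ankrd2 had too few reads to be tested. Of 9 members tested, 4 rose and 2 fell (edgeR quasi-likelihood test over 4756 genes, Benjamini-Hochberg adjusted p under 0.05), where 36.2% of all genes tested passed, 17.6% higher and 18.6% lower. The median log2 change was 0.22 over the 9 members and 0.00243 over all genes tested. PRMT1-cKO and WT values did not overlap for 8 of the 9, as for 68.1% of all genes tested. In bulk tissue, fewer cells of a type and less RNA per cell cannot be told apart.

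**Figure D1:**
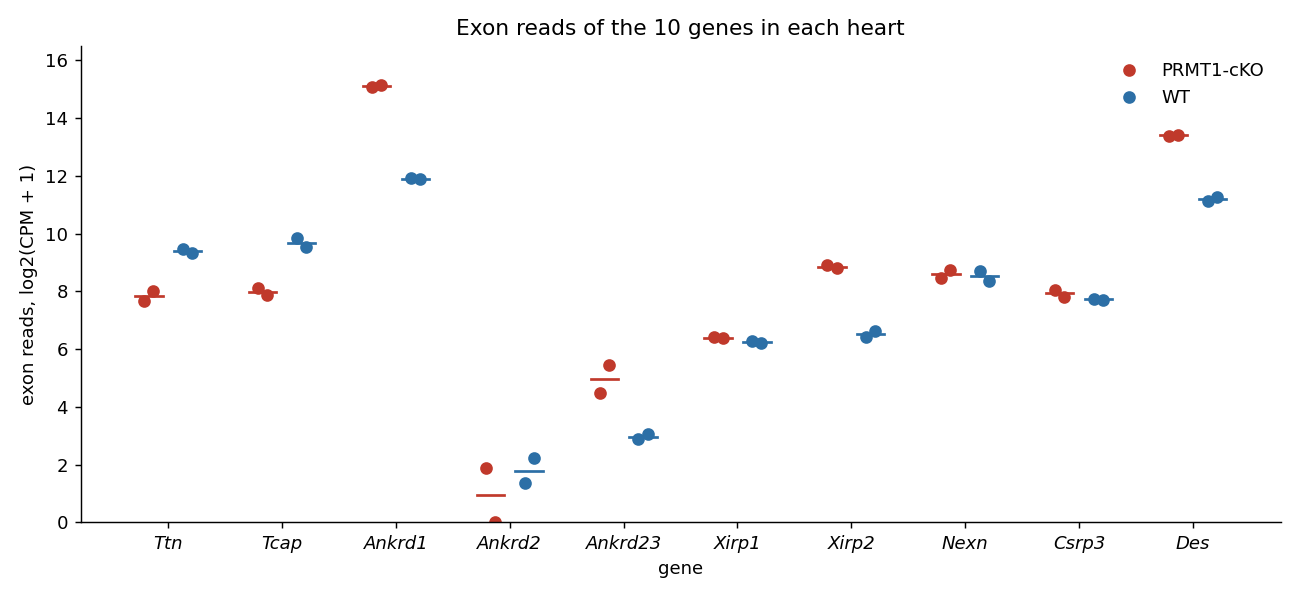
Exon reads of the 10 genes as log2(CPM + 1) on the vertical axis, with 1 point per heart and a line at the group mean, PRMT1-cKO in red and WT in blue. Ankrd1 and Des have the most exon reads per library, unscaled for length, and lie higher in PRMT1-cKO, while Ttn and Tcap lie lower.

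RNA of titin and of its cap protein was lower in PRMT1-cKO hearts. Ttn (ENSMUSG00000051747, chromosome 2, 76703980 to 76982547 on GRCm38) had 203 and 256 CPM of exon reads in PRMT1-cKO, against 701 and 644 CPM in WT. Each PRMT1-cKO heart was below each WT heart. The log2 change was -1.56 ± 0.16 (SE, n = 2 per group, edgeR adjusted p = 1.38e-06). Gene reads of Ttn were 297 and 378 CPM in PRMT1-cKO, against 1515 and 1224 CPM in WT, or -2.02 ± 0.32 in log2 (edgeR adjusted p = 1.17e-04). These gene reads were nearly all listed as intron reads: exon reads made up 2.54 and 1.85% of them in PRMT1-cKO, and 1.30 and 1.69% in WT. The exons of Ttn cover 116825 bases, and reads within a single exon may be among those listed as intron reads. The shares therefore do not measure how much titin RNA was unspliced. The table lists 389 exons and 25 transcripts for Ttn, of which the authors detected 8 and 10 in PRMT1-cKO and 10 in each WT heart, and it gives no reads per exon, so titin isoforms were not compared. The antisense gene Gm13938 overlaps Ttn by 63933 bases and had at most 8 gene reads in any library.

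Tcap (ENSMUSG00000007877, chromosome 11, 98383811 to 98384953) encodes telethonin in 2 exons. It had 278 and 231 CPM of exon reads in PRMT1-cKO, against 921 and 733 CPM in WT. The groups did not overlap, and the log2 change was -1.70 ± 0.16 (edgeR adjusted p = 6.64e-07). Gene reads of Tcap changed by -1.59 ± 0.22 (edgeR adjusted p = 2.22e-05) on the log2 scale and its few intron reads, 6 and 19 in PRMT1-cKO and 47 and 30 in WT, by -1.78 ± 0.41 (edgeR adjusted p = 0.00150). The falls of Ttn and Tcap held in the 12 alternatives for gene reads, 11 for exon reads and 12 for intron reads that differed from the values given. In the same hearts 7 of 9 tested cardiomyocyte markers fell in exon reads and 0 rose. Of all genes tested in exon reads 18.6% were lower and 17.6% higher. The summed level of the 10 cardiomyocyte markers was between 37702 and 42258 CPM in PRMT1-cKO and between 77285 and 78200 CPM in WT. None of the 10 was at 0 in all 4 libraries, and Mb, myoglobin, had 5 and 0 exon reads in PRMT1-cKO and 7 and 3 in WT. The part of this in the Ttn and Tcap values was not tested.

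Of the muscle ankyrin repeat genes Ankrd1 and Ankrd23 rose, and Ankrd2 could not be tested. Ankrd1 (ENSMUSG00000024803, chromosome 19, 36111965 to 36119844) had 34625 and 36235 CPM of exon reads in PRMT1-cKO, against 3851 and 3803 CPM in WT. The difference was many times the spread within either group, at 3.21 ± 0.10 on the log2 scale (edgeR adjusted p = 5.80e-12). Its transcripts took 3.49 ± 0.0790% of all exon reads in PRMT1-cKO and 0.388 ± 0.00465% in WT (SD, n = 2 each). By number of exon reads Ankrd1 ranked 2 of all genes in each PRMT1-cKO heart and 23 in each WT heart. Intron reads of Ankrd1 were 65.8 and 73.4 CPM in PRMT1-cKO, against 6.63 and 7.61 CPM in WT. Their log2 change of 3.29 ± 0.23 (edgeR adjusted p = 1.03e-11) was close to that of the exon reads.

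Ankrd23 (ENSMUSG00000067653, chromosome 1, 36530188 to 36536883) was covered by 16 and 28 exon reads in PRMT1-cKO, which is 21.1 and 42.6 CPM, against 4 and 4 in WT, which is 6.30 and 7.25 CPM. The log2 change was 2.19 ± 0.57 (edgeR adjusted p = 0.00666). It did not pass without PRMT1-cKO replicate 2 (log2 change 1.64, edgeR adjusted p = 0.175). In gene reads the log2 change was 2.25 ± 0.55 (edgeR adjusted p = 0.00482), which did not pass without WT replicate 1 (adjusted p = 0.0898) and without PRMT1-cKO replicate 2 (0.0590). All gene reads of Ankrd23 were exon reads, so its gene and exon values rest on the same reads and are not separate results. Gm42417, annotated on the same strand, overlaps Ankrd23 by 6691 bases, so reads of these models cannot be told apart. Ankrd2 (ENSMUSG00000025172, chromosome 19, 42036038 to 42045110) had 2 and 0 exon reads in PRMT1-cKO and 1 and 2 in WT, and 7 and 2 gene reads in PRMT1-cKO, against 1 and 5 in WT. At this depth no difference was detectable. Ankrd2 is known chiefly from skeletal muscle. Of 18 skeletal muscle markers 10 had 0 exon reads in all libraries, among them the fast myosin genes Myh1, Myh2 and Myh4, and the summed level of the list was between 27.7 and 53.2 CPM in PRMT1-cKO and between 7.25 and 14.2 CPM in WT. Tnni1, slow skeletal troponin I and a fetal heart gene, held most of that sum in PRMT1-cKO, with 19 and 22 exon reads against 0 and 0 in WT.

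Of the Xin repeat genes Xirp2 rose and Xirp1 did not pass, and the difference between them was not tested. Xirp2 (ENSMUSG00000027022, chromosome 2, 67446002 to 67526614) had 478 and 447 CPM of exon reads in PRMT1-cKO, against 83.4 and 97.9 CPM in WT. The groups lay far apart, 2.35 ± 0.18 in log2 (edgeR adjusted p = 6.59e-08). Intron reads of Xirp2 rose as well, by 1.78 ± 0.22 in log2 (edgeR adjusted p = 4.34e-07). Xirp1 (ENSMUSG00000079243, chromosome 9, 120013755 to 120023598), the founding Xin gene, had 84.3 and 82.1 CPM of exon reads in PRMT1-cKO, against 77.1 and 72.5 CPM in WT. The values did not overlap, but the log2 change of 0.15 ± 0.25 did not pass (edgeR adjusted p = 0.684). All gene reads of Xirp1 were exon reads. The whole gene lies within the annotated span of Cx3cr1, a chemokine receptor gene of macrophages, on the same strand. Cx3cr1 had 622 and 349 gene reads in PRMT1-cKO and 80 and 84 in WT, and 0 exon reads in all 4 libraries. Any reads of Xirp1 other than exon-exon reads, from its introns or within its exons, cannot be told from those of Cx3cr1. Their part in the values of either gene was not tested.

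Des (ENSMUSG00000026208, chromosome 1, 75360329 to 75368579) had 10624 and 10988 CPM of exon reads in PRMT1-cKO, against 2213 and 2461 CPM in WT. The log2 change was 2.21 ± 0.11 (edgeR adjusted p = 5.36e-10), and PRMT1-cKO hearts were above WT hearts in gene and intron reads too. Des ranked 6 and 5 by exon reads in PRMT1-cKO and 54 and 47 in WT. The antisense gene Gm15179, which overlaps Des by 368 bases, had at most 34 gene reads in any library. Smooth muscle and pericytes also contain desmin. Of 11 markers of these cells 0 rose and 5 fell in exon reads, where 17.6% of all genes tested were higher and 18.6% lower. None of the 11 was at 0 in all libraries. Their summed level was between 2546 and 2593 CPM in PRMT1-cKO and between 3263 and 3790 CPM in WT. In gene reads 1 of the 11 rose and 2 fell, where 11.5% of all genes tested were higher and 11.2% lower. The part of these cells in the Des values was not tested. Together the 10 genes took 4.66 and 4.79% of exon reads in PRMT1-cKO and 0.862 and 0.845% in WT. Ankrd1 and Des held most of this share, and the other 8 genes together took 0.167 and 0.167% in PRMT1-cKO and 0.246 and 0.211% in WT.

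Muscle LIM protein and nexilin did not pass the test in exon reads. Csrp3 (ENSMUSG00000030470, chromosome 7, 48830398 to 48848051) had 266 and 221 CPM of exon reads in PRMT1-cKO, against 214 and 205 CPM in WT, with 0.22 ± 0.18 in log2 (edgeR adjusted p = 0.362). Nexn (ENSMUSG00000039103, chromosome 3, 152236986 to 152266320) had 349 and 421 CPM in PRMT1-cKO, against 416 and 325 CPM in WT, with 0.05 ± 0.17 in log2 (edgeR adjusted p = 0.842). A test that misses the threshold does not show equal levels. Nexn values of the groups overlapped. Gm43185, annotated on the same strand, overlaps Nexn by 2775 bases and was not analysed here.

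Gene reads and intron reads gave a different picture for these 2 genes. In gene reads 4 members rose (Ankrd1, Ankrd23, Xirp2 and Des), 4 fell (Ttn, Tcap, Csrp3 and Nexn) and Xirp1 did not pass, where 22.7% of 13869 genes tested passed. The groups did not overlap for 8 of the 9, as for 59.5% of all genes tested. All gene reads of Ankrd23 and Xirp1 were exon reads, so their gene read results repeat the exon reads. Csrp3 changed by a log2 value of -0.58 ± 0.20 (edgeR adjusted p = 0.0445) and Nexn by -0.71 ± 0.24 (edgeR adjusted p = 0.0367). Both calls were lost without WT replicate 1 (adjusted p = 0.338 for Csrp3 and 0.283 for Nexn) and without WT replicate 2 (0.296 and 0.202), and that of Nexn also without PRMT1-cKO replicate 1 (0.12). That of Csrp3 was lost without a read filter too (0.0768). In the authors' deposited table the corrected p-values were 0.0515 for Csrp3 and 0.0436 for Nexn. In intron reads all 7 members tested passed, 3 higher and 4 lower, where 21.8% of 13217 genes tested passed. The groups did not overlap for 7 of the 7, as for 58.2% of all genes tested. Intron reads of Csrp3 were 20.4 and 22.2 CPM in PRMT1-cKO, against 37.4 and 37.7 CPM in WT, and those of Nexn were 29.6 and 48.4 CPM in PRMT1-cKO, against 73.4 and 73.2 CPM in WT. Both genes were lower in each PRMT1-cKO heart, with adjusted p = 0.00264 for Csrp3 and 0.00462 for Nexn (edgeR), and 0.0547 and 0.0546 without WT replicate 1.

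**Figure D2:**
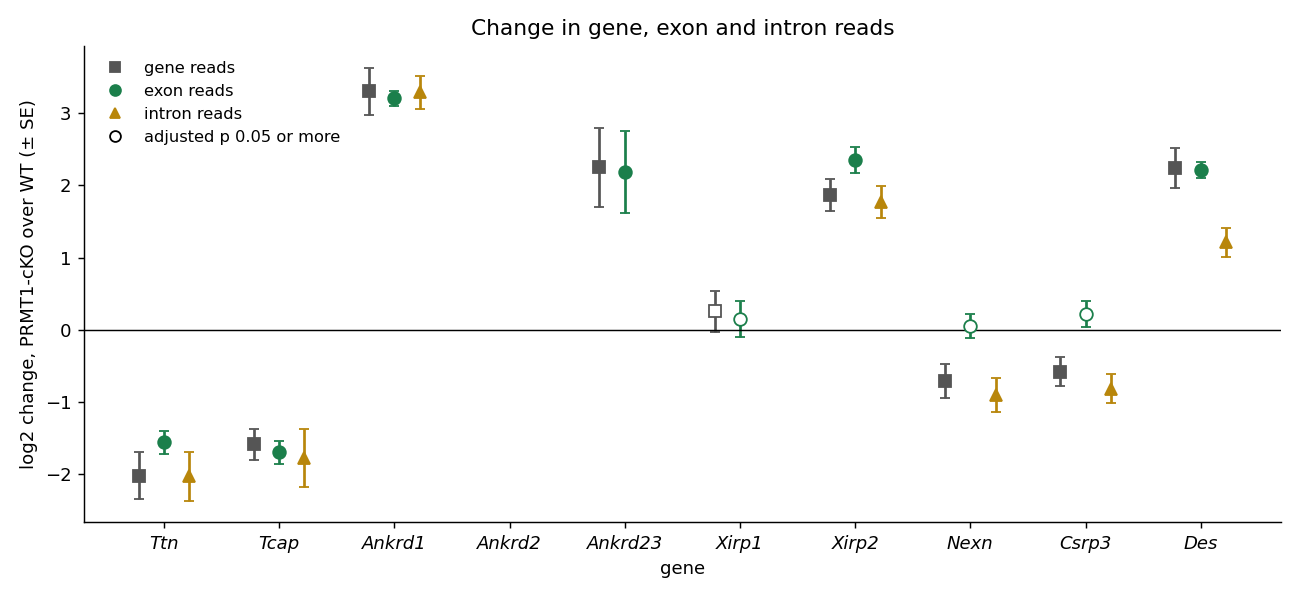
Log2 change of PRMT1-cKO over WT on the vertical axis for gene reads (squares), exon reads (circles) and intron reads (triangles) of each gene, with bars for 1 SE and open symbols for an adjusted p of 0.05 or more. Nexn and Csrp3 have exon reads near 0 and intron reads below 0, and Ankrd2 was not tested.

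Exon and intron reads of 3 members moved apart. Within-gene comparison covered 4196 genes with both kinds of reads, among them 7 members. The signed exon change lay above the intron change for Csrp3, Des and Nexn (edgeR diffSpliceDGE, adjusted p under 0.05). Of all genes tested 8.03% passed, 4.34% with the exon change above the intron change and 3.69% below. The exon change minus the intron change was 1.14 ± 0.32 for Csrp3 (edgeR adjusted p = 0.00984), 1.09 ± 0.28 for Des (0.00322) and 1.03 ± 0.31 for Nexn (0.0183) on the log2 scale. The median over all genes tested was 0.18. For Des both kinds of reads rose, the intron reads by 1.21 ± 0.20 (edgeR adjusted p = 3.65e-05), while for Csrp3 and Nexn the intron reads fell and the exon reads did not pass. The differences of Xirp2 (0.69 ± 0.32, edgeR adjusted p = 0.190), Ttn (0.55 ± 0.27, 0.215), Tcap (0.18 ± 0.46, 0.874) and Ankrd1 (0.01 ± 0.39, 0.995) did not pass.

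The exon share of gene reads shows the same values heart by heart. It was 34.2 and 21.4% for Csrp3 in PRMT1-cKO, against 14.1 and 15.4% in WT. For Nexn it was 32.0 and 19.3% in PRMT1-cKO, against 13.96 and 12.97% in WT. In both genes PRMT1-cKO replicate 1 was the highest, and the 95% Wilson interval of PRMT1-cKO replicate 2 for Csrp3, 18.5 to 24.6%, began just above the end of that of WT replicate 2, 18.2%. For Des the share was 96.4 and 96.0% in PRMT1-cKO, against 91.4 and 93.1% in WT. Over all genes the share was 4.18 and 3.60% in PRMT1-cKO and 2.45 and 2.51% in WT, and its part in the values of single genes was not tested beyond the median given above. Without a read filter the difference of Nexn did not pass (edgeR adjusted p = 0.0692). Without WT replicate 1 or WT replicate 2 none of the 3 within-gene differences passed (adjusted p = 0.423 and 0.112 for Des, 0.456 and 0.281 for Csrp3, 0.415 and 0.458 for Nexn). Without PRMT1-cKO replicate 1 that of Des alone passed, with differences of 0.66 for Csrp3 (adjusted p = 0.207) and 0.61 for Nexn (0.161). Without PRMT1-cKO replicate 2 they were 1.59 for each of these 2 genes (adjusted p = 1.36e-05 and 1.09e-06), and the median of all genes moved too, to -0.10 without PRMT1-cKO replicate 1 and 0.49 without PRMT1-cKO replicate 2.

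**Figure D3:**
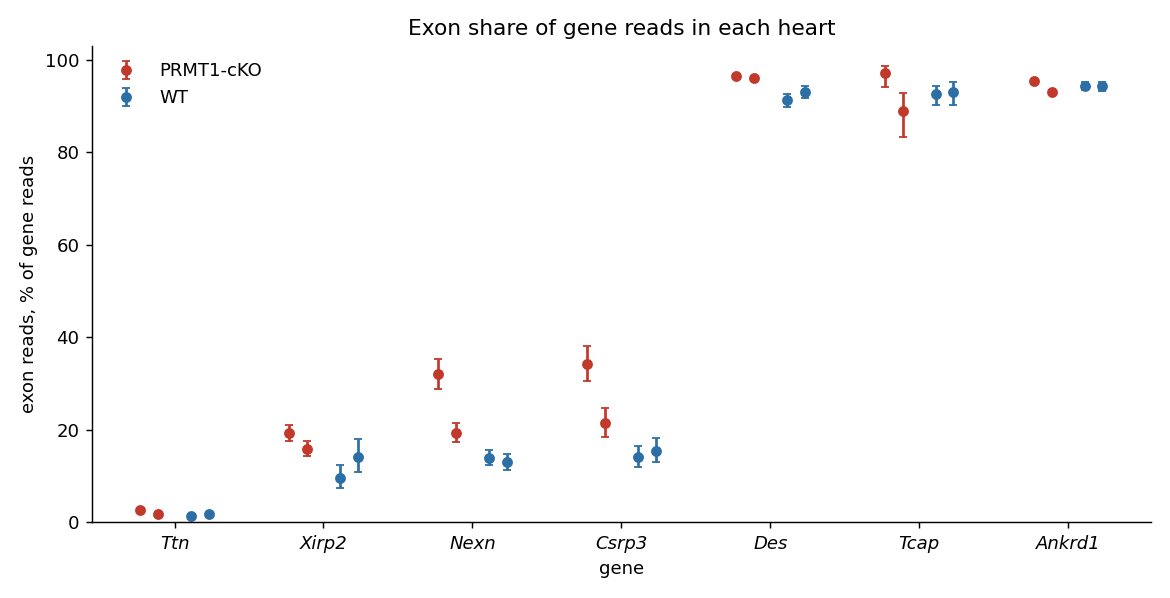
Exon reads as a percentage of gene reads on the vertical axis, with 1 point per heart and its 95% Wilson interval, for the 7 genes tested in both kinds of reads, PRMT1-cKO in red and WT in blue. Csrp3, Nexn, Xirp2, Des and Ttn lie higher in both PRMT1-cKO hearts than in WT, and Tcap and Ankrd1 overlap. Ttn stays below 3% in all 4.

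The order of the genes by exon reads per kilobase differed between the genotypes. The deposited RPKM values, which divide exon reads by the length of the exons and by all gene reads of the library, were used for levels within a group only, since most gene reads are not exon reads. In PRMT1-cKO the order was Ankrd1 at 768 ± 64.6 RPKM (SD, n = 2), Des at 110 ± 10.2, Tcap at 10.4 ± 2.53, Csrp3 at 9.66 ± 2.38, Nexn at 5.72 ± 0.0954, Xirp2 at 1.49 ± 0.242, Xirp1 at 0.547 ± 0.0735, Ankrd23 at 0.440 ± 0.164, Ttn at 0.0745 ± 0.00349 and Ankrd2 at 0.0497 ± 0.0703. The ranges overlapped for the neighbours Tcap and Csrp3, Xirp1 and Ankrd23, and Ttn and Ankrd2. In WT the order was Ankrd1 at 54.5 ± 0.298 RPKM, Tcap at 21.9 ± 3.22, Des at 15.7 ± 1.40, Csrp3 at 5.42 ± 0.0904, Nexn at 3.63 ± 0.580, Xirp1 at 0.322 ± 0.00941, Xirp2 at 0.191 ± 0.0242, Ttn at 0.145 ± 0.00657, Ankrd23 at 0.0632 ± 0.00721 and Ankrd2 at 0.0597 ± 0.0340. There the ranges overlapped for Ankrd23 and Ankrd2. Des stood above Tcap in PRMT1-cKO and below it in WT, and Xirp2 stood above Xirp1 in PRMT1-cKO and below it in WT. Exon reads depend on how many junctions were counted as well as on length, and some genes have almost none: Actn2, the alpha-actinin of the Z-disc, had 0 or 1 exon read per library beside 687 and 993 gene reads in PRMT1-cKO and 2647 and 1384 in WT. The order therefore describes the deposited reads and is not an order of RNA amounts.

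Other Z-disc and I-band genes went both ways. Of 28 genes of this kind 20 were tested in exon reads, and 8 rose, 4 fell and 8 did not pass. Nrap, an actin-anchoring protein of growing myofibrils, was 5.51-fold higher (61.9 and 60.8 CPM in PRMT1-cKO, against 9.45 and 12.7 CPM in WT, edgeR adjusted p = 2.55e-04). This value rests on 47 and 40 exon reads in PRMT1-cKO and 6 and 7 in WT, and gene reads of Nrap did not pass (log2 change -0.11, edgeR adjusted p = 0.781). Pdlim7, a PDZ and LIM domain protein, was 5.23-fold higher and Pdlim3, its relative that binds alpha-actinin, 2.77-fold higher. The Pdlim7 value rests on 56 and 27 exon reads in PRMT1-cKO and 9 and 4 in WT. Ldb3, which encodes the Z-disc protein ZASP, was 4.34-fold lower, with 56.6 and 47.2 CPM in PRMT1-cKO and 156 and 301 CPM in WT. The list's median log2 change was 0.34 in exon reads. In gene reads 5 of 26 rose and 9 fell, with a median of -0.05. Over all genes tested, 17.6% were higher and 18.6% lower in exon reads, and 11.5% were higher and 11.2% lower in gene reads. These shares are the background for the counts of the lists that follow too.

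Of 17 M-band and titin signalling genes 14 were tested in exon reads, and 4 rose, 5 fell and 5 did not pass. Sqstm1, the autophagy adaptor p62, was 4.32-fold higher, and the LIM domain gene Fhl1 3.85-fold higher, from 41 and 29 exon reads in PRMT1-cKO and 8 and 7 in WT. Gene reads of Fhl1 did not pass and had the opposite sign (log2 change -0.42, edgeR adjusted p = 0.201). Fhl2, whose product binds the N2B region of titin, was 2.97-fold lower, with 377 and 490 CPM in PRMT1-cKO and 1322 and 1246 CPM in WT. Obsl1, a relative of obscurin, was 4.21-fold lower from a low level, with 8 and 4 exon reads in PRMT1-cKO and 25 and 18 in WT, and did not pass in gene reads (edgeR adjusted p = 0.142). The list's median log2 change was -0.10 in exon reads and -0.47 in gene reads, where 2 of 17 rose and 5 fell. Trim63, the titin-binding ubiquitin ligase MuRF1, is listed at 0 exon reads in all libraries, although it had 154 and 227 gene reads in PRMT1-cKO and 533 and 381 in WT.

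Of 13 partners of the desmin filament 7 were tested in exon reads, and 3 rose, 1 fell and 3 did not pass. Krt18, a keratin, was 15.9-fold higher, with 125 and 89 exon reads in PRMT1-cKO and 5 and 6 in WT. Vim, the intermediate filament of mesenchymal cells, was 1.93-fold higher and Dsp, the desmosome protein that anchors desmin, 1.62-fold higher. Dmd, dystrophin, was 1.61-fold lower. Dsp and Dmd did not pass in gene reads (edgeR adjusted p = 0.174 and 0.0614). The list's median log2 change was 0.47 in exon reads and -0.17 in gene reads, where 2 of 11 rose and 2 fell. Nes, Lmna and Krt19 are listed at 0 exon reads in all libraries, although Lmna had 61 and 77 gene reads in PRMT1-cKO and 72 and 66 in WT.

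**Figure D4:**
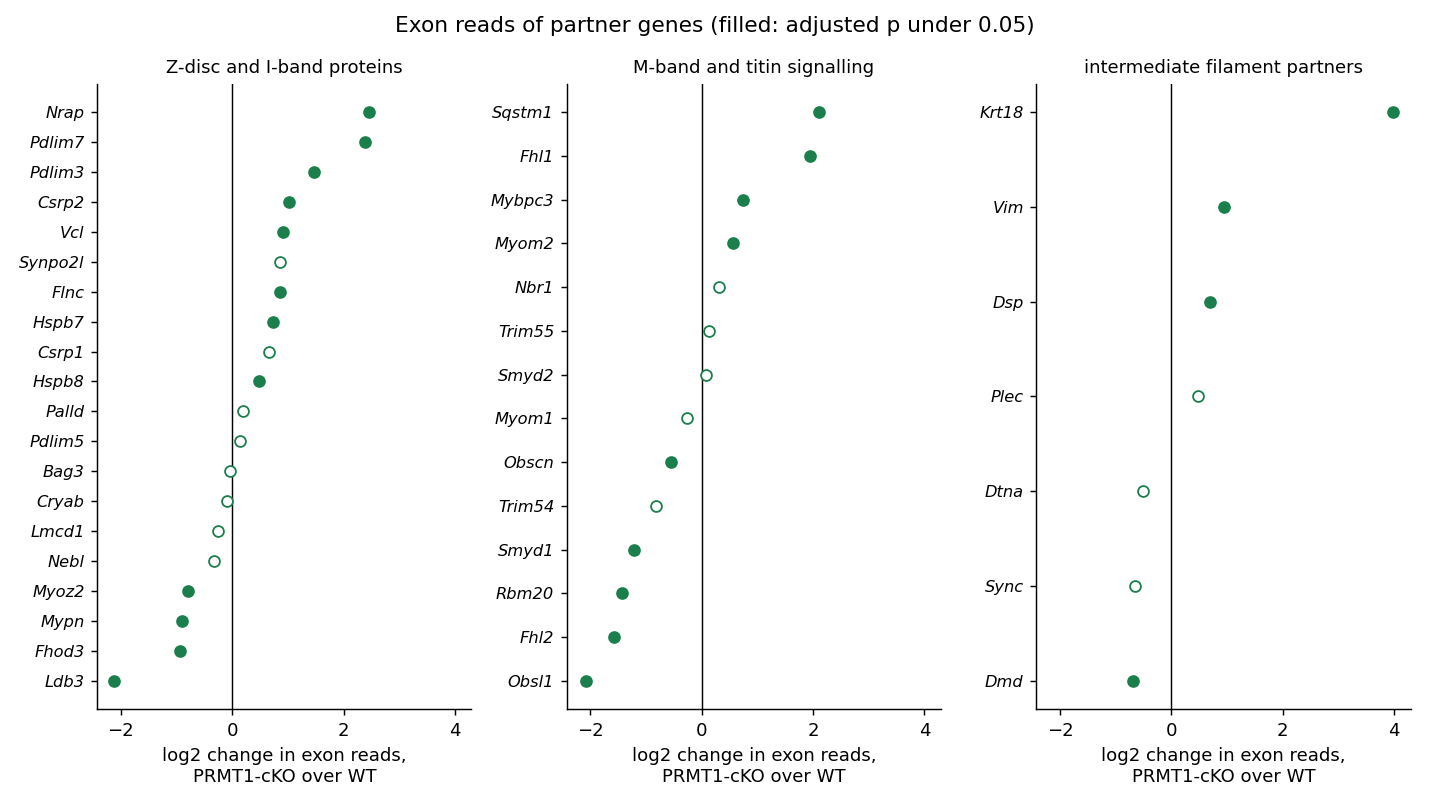
Log2 change of PRMT1-cKO over WT in exon reads on the horizontal axis for each tested gene of the 3 partner lists, filled where the adjusted p is under 0.05. The Z-disc list runs from Ldb3 to Nrap with members on both sides of 0, and Krt18 lies farthest to the right.

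Markers of other heart cells were counted in the same hearts, where 36.2% of all genes tested passed in exon reads. Of 10 fibroblast markers 7 were tested in exon reads, and 6 rose and 0 fell, with a summed level between 13628 and 20856 CPM in PRMT1-cKO and between 4021 and 5222 CPM in WT. Of 11 leukocyte markers 5 were tested and all 5 rose, with a sum between 818 and 902 CPM in PRMT1-cKO and between 225 and 341 CPM in WT. Of 10 endothelial markers 6 were tested, and 1 rose and 1 fell, with a sum between 3015 and 3472 CPM in PRMT1-cKO and between 4163 and 4210 CPM in WT. In gene reads 8 of 10 fibroblast markers tested rose and 1 fell. All 8 leukocyte markers tested rose, and of 9 endothelial markers 1 rose and 2 fell, where 22.7% of all genes tested passed. Fap, Csf1r, Cd3e and Cldn5 are listed at 0 exon reads in all libraries. Fap, a fibroblast marker, had 140 and 137 gene reads in PRMT1-cKO and 250 and 166 in WT. Csf1r had 180 and 201 gene reads in PRMT1-cKO and 99 and 67 in WT. The part of these cells in the levels of Ankrd1, Xirp2, Des, Ankrd23 and Vim was not tested.

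The genes most like Ankrd1 and Ttn over the 4 libraries were found by the distance between log2(CPM + 1) values of exon reads, centred over libraries, among 5162 named genes with a mean of at least 10 CPM. Nearest to Ankrd1 were Efhd2 (distance 0.14), Maoa (0.22) and Srxn1 (0.24). Efhd2 averaged 575 ± 15.5 CPM in PRMT1-cKO and 59.6 ± 4.78 CPM in WT (SD, n = 2 each). Nearest to Ttn were Fhl2 (distance 0.046), Exd2 (0.051) and Fam195a (0.071). Exd2 averaged 14.95 ± 2.52 CPM in PRMT1-cKO and 44.6 ± 1.51 CPM in WT. The 4 libraries form 2 groups, so these distances describe the libraries and carry no test.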

How the data were processed

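Cardiac total RNA was depleted of ribosomal RNA with a RiboMinus kit and made into SOLiD libraries, per the labels' protocols. The build was GRCm38, per the submitters' processing notes. Aligner, counter and strand use are not stated in the sources. The deposited table holds whole-number read counts per gene of 3 kinds (gene, exon and intron), per the file headers, and unique counts equalled total counts. RPKM values deposited by the authors were recomputed from exon reads, exon length and total gene reads, with a largest difference of 9.09e-13. P-values and a signed fold change score in the deposited table come from the authors' EDGE test, per the file headers. The number of detected transcripts is the authors' own value. Starts were made 1-based by adding 1, after which 33497 of 42462 genes matched to GENCODE M21 had equal start and end.

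The count tests used edgeR 4.0.16 (R 4.3.3) with TMM scaling, filterByExpr (count 10, total 15) and the quasi-likelihood F test, two-sided, with genotype alone in the model. P-values were adjusted by Benjamini-Hochberg over all genes tested. CPM values are TMM-scaled. The SE is the log2 change over the square root of F. Exon and intron changes were compared within genes by diffSpliceDGE. Each library is 1 replicate, and an exact permutation test of 2 against 2 cannot go below p = 0.333. Scripts were tested on simulated data. Alternatives were other size factors, genes with an annotated exon only, DESeq2 1.42.0, other read filters, unique reads, a replicate block and leaving out each library. Named genes were all members, the 3 nearest patterns and, from each of the 3 partner lists, up to 4 genes with the largest exon read change that passed. The cell marker lists are given as counts and sums. Myh6 and Tnni1 were given as markers. Prmt1, Cx3cr1, Actn2, Mb, Tnni3, Lmna and the genes listed at 0 were named after their values were seen. The members and lists were chosen with earlier results of these data known.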

Additional observations from a re-analysis of the deposited data

How the results depend on the processing

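The calls of Ttn, Tcap, Ankrd1, Xirp2 and Des in gene, exon and intron reads kept direction and threshold under all 12, 11 and 12 alternatives that differed from the values reported. Unique reads repeated those values, as did exon reads of genes with an annotated exon only, and neither is counted. Over single members, 328 of 359 alternative values kept both, 24 lost the threshold, 2 gained it and 5 changed sign. Changes of sign were in values that did not pass: over the left-out libraries, Xirp1 gene reads lay between -0.023 and 0.46, Nexn exon reads between -0.14 and 0.22, and the exon minus intron difference between -0.31 and 0.33 for Ankrd1 and between -0.69 and 1.43 for Tcap, on the log2 scale. Leaving out single libraries gave between 1815 and 3552 genes called in gene reads, between 1263 and 1699 in exon reads, between 1632 and 3036 in intron reads and between 53 and 625 for exon against intron reads. Members lower ranged from 2 to 4 in gene reads and from 2 to 4 in intron reads, and members with exon above intron change from 0 to 5. With DESeq2 the genes called numbered 1096 in exon reads (1724 with edgeR) and 1783 in intron reads (2886 with edgeR). Without a read filter exon against intron reads called 179 genes, against 337 with the filter. The causes were not tested. Replicate numbers were not taken as pairs: deviations of same-numbered libraries correlated at -0.12 in gene, -0.01 in exon and -0.09 in intron reads, each across genes, which are not independent. With a replicate block, 2 members were lower in gene reads, 153 genes and 1 member were called for exon against intron reads, and Csrp3 and Nexn lost their gene read calls (edgeR adjusted p = 0.193 and 0.135). A crossed pairing, added after the data were seen, called 4329 genes in gene, 1806 in exon and 3702 in intron reads. Fits without 1 library assume that the lone heart of a group varies like the other group. Low exon depth limits Ankrd2 and Ankrd23 most.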
